A study of Homo sapiens with 12 samples.

Results

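The LIM-only proteins LMO1, LMO2, LMO3 and LMO4, their binding partners LDB1 and LDB2, and the zinc-finger repressors BCL11A and BCL11B make up 8 genes of the 59087 features counted. They were taken by symbol, and they were picked because LMO4 and BCL11A had been seen to be nearly lost in knockout lines 1 and 2, so levels in those lines are given as a description, without a test. The cells were SH-SY5Y, a human neuroblastoma cell line of sympathetic nervous system origin. Poly(A) RNA was sequenced from FMR1-knockout cells in heavy SILAC medium, FMR1-knockout cells in light SILAC medium, wild-type cells in heavy medium and wild-type cells in light medium. Each of these 4 groups had 3 libraries. Heavy medium carried arginine and lysine made of heavy carbon and nitrogen isotopes, light medium carried the ordinary amino acids, and all cells had been kept in their medium for 2 weeks with dialysed fetal bovine serum. The knockout libraries come from 3 lines made independently, each sequenced once per medium. The wild-type libraries carry a number only, and nothing says that they were separate cultures, so their spread may be technical. How a line was derived and its loss of FMR1 cannot be told apart here.

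Each library held between 25935152 and 40257027 counts. FMR1, which encodes the RNA-binding protein FMRP, stood at 22.5 and 11.4 CPM (read counts scaled to the TMM-adjusted library total) in line 1, 12.8 and 11.5 CPM in line 2 and 7.12 and 9.08 CPM in line 3, heavy library first, against 37.8 ± 2.15 CPM in wild type (SD, n = 6). The labels used here do not say which part of FMR1 was altered. The library labelled line 1 heavy stood apart from its light partner: the SD over genes of its log2 difference from the wild-type mean was 0.330, against 0.556 in line 1 light and 0.570 and 0.572 in line 2. The same SD was 0.268 and 0.253 in line 3 and 0.112 to 0.145 in the wild-type libraries. Levels in line 1 are therefore given per library. Of 9 adrenergic neuroblastoma markers, 8 averaged at least 1 CPM; TH, the rate-limiting enzyme of catecholamine synthesis, did not. In bulk RNA, fewer cells of a type and less RNA per cell cannot be told apart.

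LIM-only proteins consist of little more than a pair of LIM zinc fingers and do not bind DNA themselves. They join DNA-bound factors, such as GATA and basic helix-loop-helix proteins, to LDB proteins, which dimerise and so hold such complexes together. LIM homeodomain factors bind the same LDB surface and compete for it. LMO1 is a neuroblastoma susceptibility gene and oncogene, LMO2 is known from blood formation and T-cell leukaemia, LMO3 has been linked to neuroblastoma, and LMO4 is widely expressed in neurons and epithelia. BCL11A silences the fetal globin genes in adult red cells and acts in cortical neurons, BCL11B directs T-cell and motor-neuron development, and both work with the NuRD and BAF chromatin remodelling complexes.

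To show the DNA upstream of the genes that varied most and of the one that varied least, the parts outside annotated exons of RefSeq promoter windows are printed for LMO4, BCL11A and LMO1 (GRCh38.p14), with CG dinucleotides in capitals. For each gene, the window whose printable stretch of at least 150 bases was richest in CG was taken. The stretches are chr1:87331494-87331667 on the plus strand for LMO4, chr2:60550926-60551157 on the minus strand for BCL11A and chr11:8268788-8269037 on the minus strand for LMO1. Those of LMO4 and BCL11A precede start sites inside the annotated genes.

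LMO4: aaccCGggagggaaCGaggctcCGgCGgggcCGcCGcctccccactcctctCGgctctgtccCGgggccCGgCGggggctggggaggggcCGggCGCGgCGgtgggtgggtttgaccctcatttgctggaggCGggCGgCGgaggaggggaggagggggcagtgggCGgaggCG

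BCL11A: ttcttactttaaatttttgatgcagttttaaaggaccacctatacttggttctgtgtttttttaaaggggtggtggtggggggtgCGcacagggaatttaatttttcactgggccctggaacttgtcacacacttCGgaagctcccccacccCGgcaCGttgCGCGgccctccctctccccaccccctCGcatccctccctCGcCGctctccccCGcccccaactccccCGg

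LMO1: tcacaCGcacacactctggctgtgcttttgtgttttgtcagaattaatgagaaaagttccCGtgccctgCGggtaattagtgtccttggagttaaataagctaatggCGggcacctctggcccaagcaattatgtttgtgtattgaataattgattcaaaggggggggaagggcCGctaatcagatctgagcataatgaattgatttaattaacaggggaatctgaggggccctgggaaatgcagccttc

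The LMO4 stretch of 174 bases held 19 CG dinucleotides, the BCL11A stretch of 232 bases held 11, and the LMO1 stretch of 250 bases held 5. Per 100 bases these are 10.9 for LMO4, 4.74 for BCL11A and 2.00 for LMO1, against 4.4 from the median of all 35116 promoter windows. These counts are for the stretches printed and not for the genes' other windows. Each stretch was taken as its gene's richest in CG, while the median is over unselected windows, so they do not compare like with like. The E-box letters CANNTG, read on both strands since they are their own reverse complement, occurred in 61.8% of all windows and in 7 of the 15 windows of member genes. Those windows belong to 6 of the 8 genes, since LDB2 and LMO2 had none, and some windows of LMO3 overlap. GATAA on either strand occurred in 20.4% of all windows and in 1 member window. Neither says whether a factor binds there.

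LMO4 mRNA was close to absent in 3 of the 6 knockout libraries and reduced less in the other 3. It stood at 10.7 CPM in line 1 heavy, 0.453 CPM in line 1 light, 0.646 CPM in line 2 heavy, 0.539 CPM in line 2 light, 17.4 CPM in line 3 heavy and 16.8 CPM in line 3 light, against a lowest, median and highest value of 20.2, 23.4 and 25.1 CPM in the wild-type libraries. Every knockout library lay below every wild-type library, and the 3 lowest lay more than an order of magnitude below line 1 heavy. These 3 values rest on 16, 23 and 14 reads, and the upper ends of their exact 95% Poisson intervals, which cover counting error only, were 0.736, 0.970 and 0.904 CPM. LMO4 (chr1:87328468-87348923, plus strand, GRCh38) thus averaged 0.592 ± 0.0760 CPM in line 2 (SD, n = 2) and 23.1 ± 1.78 CPM in wild type (SD, n = 6), 39.0-fold lower in line 2.

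BCL11A (chr2:60450520-60555154, minus strand) followed LMO4 closely. It stood at 9.73 CPM in line 1 heavy, 0.113 CPM in line 1 light, 0.4495 CPM in line 2 heavy, 0.539 CPM in line 2 light, 12.9 CPM in line 3 heavy and 10.4 CPM in line 3 light, against a lowest, median and highest value of 16.1, 18.6 and 19.9 CPM in wild type. Line 1 light and line 2 were again nearly empty of the transcript, and no knockout library reached the wild-type range. The line 1 light value rests on 4 reads, with an upper interval end of 0.290 CPM. The mean was 0.494 ± 0.0631 CPM in line 2 (SD, n = 2) and 18.4 ± 1.45 CPM in wild type (SD, n = 6), 37.2-fold lower in line 2.

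LDB2 (chr4:16501541-16898809, minus strand), the less abundant of the LDB partners, was low throughout. It stood at 2.10 CPM in line 1 heavy, 0.113 CPM in line 1 light, 0.281 CPM in line 2 heavy, 0.346 CPM in line 2 light, 2.02 CPM in line 3 heavy and 2.03 CPM in line 3 light, against a lowest, median and highest value of 3.42, 4.05 and 4.797 CPM in wild type. The groups did not overlap, and line 1 heavy and both line 3 libraries lay close together, at 51.98% of the wild-type mean in line 1 heavy, 49.95% in line 3 heavy and 50.2% in line 3 light. The line 2 mean was 12.9-fold lower than the wild-type mean, on 19 reads in line 2 and 799 reads in wild type.

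LMO3 (chr12:16548373-16610594, minus strand) was reduced to a smaller degree. It stood at 39.4 CPM in line 1 heavy, 27.4 CPM in line 1 light, 28.8 CPM in line 2 heavy, 30.1 CPM in line 2 light, 46.6 CPM in line 3 heavy and 46.9 CPM in line 3 light, against a lowest, median and highest value of 52.7, 53.7 and 60.2 CPM in wild type. Again no knockout library entered the wild-type range, and line 1 light and line 2 were the lowest, at 49.9% to 54.9% of the wild-type mean. Across all 16704 genes tested, 4.16% had all 6 knockout libraries below all 6 wild-type libraries and 6.35% had them above; LMO3, LMO4, LDB2 and BCL11A were among them, and nothing is read from that count, since the genes were chosen on this contrast.

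The remaining 4 genes did not share this pattern. LMO1 (chr11:8224304-8268716, minus strand) averaged 57.3 ± 2.91 CPM in knockout and 54.2 ± 4.35 CPM in wild type (SD, n = 6 each), with overlapping ranges; both line 1 libraries, at 60.5 and 59.6 CPM, lay just above the highest wild-type library at 59.4 CPM. LDB1 (chr10:102107560-102120453, minus strand), the main LDB partner, averaged 101 ± 11.3 CPM in knockout and 121 ± 4.87 CPM in wild type (SD, n = 6 each). Its line 1 and line 2 libraries lay below all wild-type libraries, while line 3 light, at 113.9 CPM, lay above the lowest wild-type library at 113.5 CPM. LMO2 (chr11:33858576-33892289, minus strand) had 13 reads over the knockout libraries and 16 over the wild-type libraries, and BCL11B (chr14:99169287-99271524, minus strand) had 0 reads over the knockout libraries and 1 read over the wild-type libraries. Both failed the filter on low counts, so 6 of the 8 genes were tested; a limit of 3 counts corresponds to between 0.0745 and 0.115 CPM in these libraries.

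**Figure D1:**
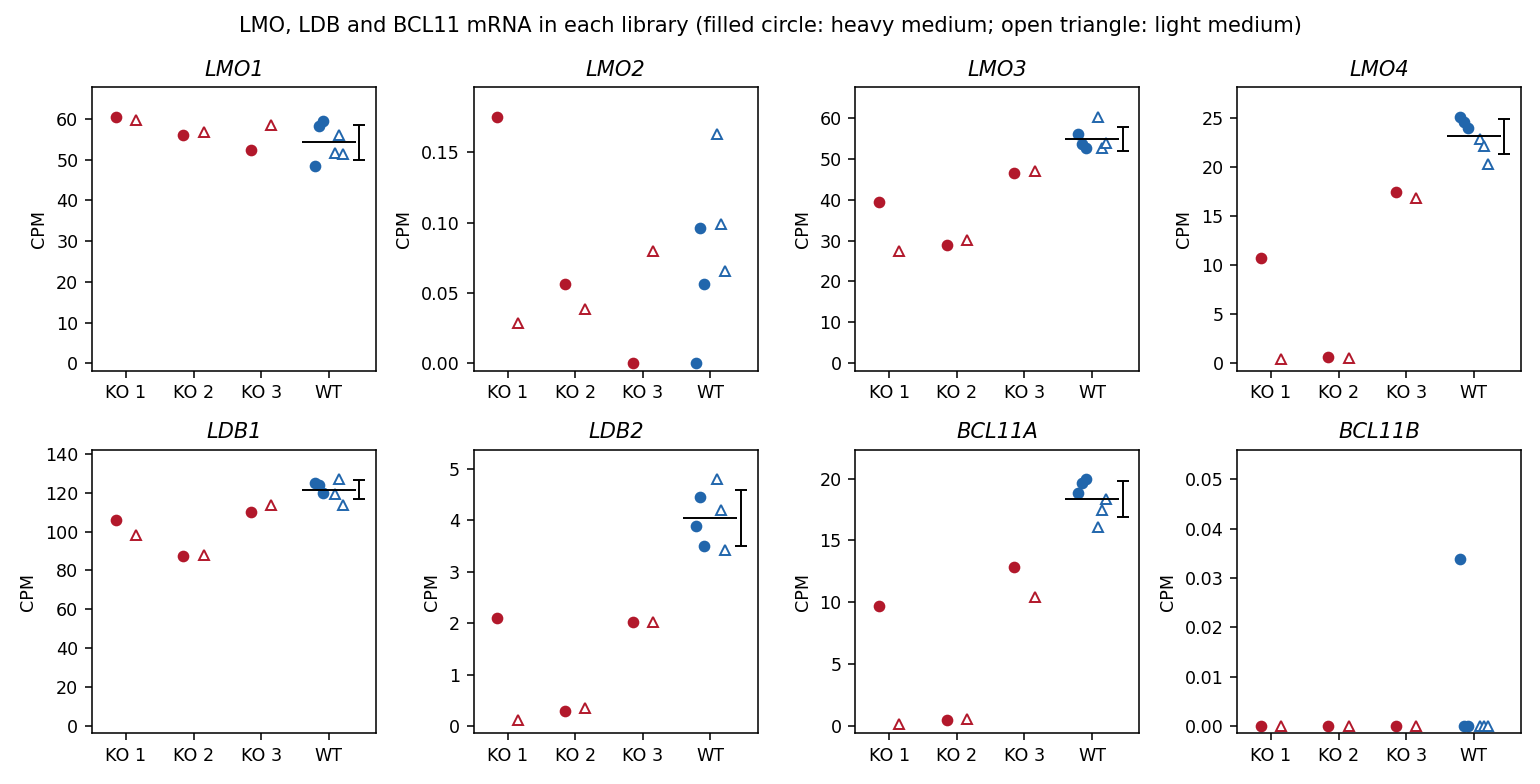
CPM of the 8 genes in each library, with knockout lines 1 to 3 left of wild type (WT), filled circles for heavy and open triangles for light medium; the bar is the wild-type mean and the whisker its SD (n = 6), left out for LMO2 and BCL11B. LMO4, BCL11A and LDB2 are near 0 in line 1 light and both line 2 libraries, while LMO1 overlaps with wild type.

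The longest exact stretch shared by transcripts of a pair was 20 bases for LMO1 and LMO3, 23 bases for LDB1 and LDB2 and 29 bases for BCL11A and BCL11B. Whether reads were assigned across these genes was not tested. LDB2 was the one member whose exons overlap an annotated antisense gene, and that gene had 0 reads.

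To set levels of different genes side by side, CPM were divided by annotated exon length, and are here CPM per kb of exon. The 4 LMO genes together came to 41.5 in line 1 heavy, 38.0 in line 1 light, 36.3 ± 0.321 in line 2 and 40.3 ± 2.46 in line 3 (SD, n = 2 each for lines 2 and 3), against 41.4 ± 2.49 in wild type (SD, n = 6). LMO1 supplied most of this sum in every group, with 86.2% in line 1 heavy, 92.8% in line 1 light, 91.8% in line 2 and 81.4% in line 3, against 77.4% in wild type. LMO4 supplied 4.43% in line 1 heavy, 0.204% in line 1 light, 0.280% in line 2 and 7.29% in line 3, against 9.59% in wild type. LMO3 supplied 9.23% in line 1 heavy, 7.004% in line 1 light, 7.90% in line 2 and 11.3% in line 3, against 13.0% in wild type. Per exon length, LMO1 thus supplied most of the LMO sum in every library. This rests on the scaling to length, since the annotated exons of LMO1 span 1.69 kb and those of LMO3 10.268 kb: in CPM, LMO3 averaged 54.9 and LMO1 54.2 in wild type. LDB2 supplied 0.980% of the LDB sum in line 1 heavy, 0.0575% in line 1 light, 0.178% in line 2 and 0.895% in line 3, against 1.64% in wild type, so LDB1 was almost all of it everywhere.

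**Figure D2:**
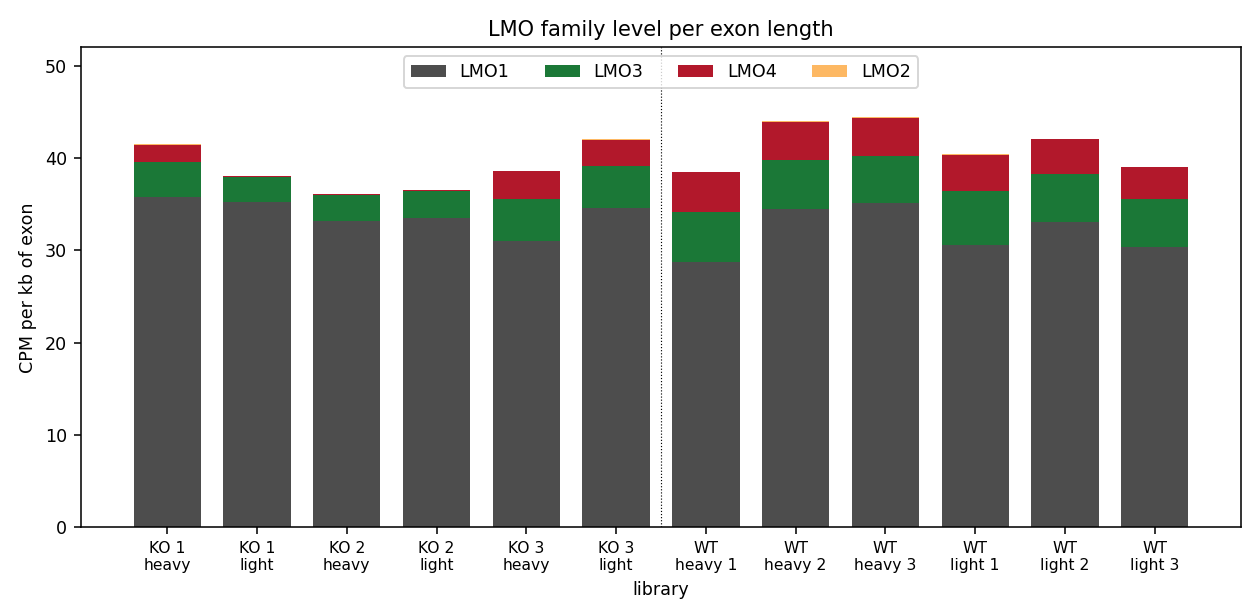
Stacked CPM per kb of exon of LMO1, LMO3, LMO4 and LMO2 in each library, knockout lines left of wild type. LMO1 is the largest share in every library, and the LMO4 share is 0.280% on average in line 2 and 9.59% in wild type.

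Line 3 was not used in choosing the genes, although the wild-type libraries were, so its difference from wild type was tested, with an edgeR quasi-likelihood fit over all 12 libraries that shares 1 estimate of the spread. In this fit 5.04% of the 16704 genes passed an adjusted p of 0.05 (3.22% higher and 1.82% lower in line 3), and 0 of the 6 members tested did, although 2 had an unadjusted p under 0.05, LMO3 and LDB1, and DESeq2 also called 0. The log2 fold changes of line 3 over wild type were −0.42 ± 0.54 for LMO4 (SE, edgeR adjusted p = 0.754), −0.66 ± 0.63 for BCL11A (edgeR adjusted p = 0.647) and −0.99 ± 0.50 for LDB2 (edgeR adjusted p = 0.330). For LMO3 it was −0.23 ± 0.097 (edgeR adjusted p = 0.211), for LDB1 −0.12 ± 0.053 (edgeR adjusted p = 0.253) and for LMO1 0.03 ± 0.075 (edgeR adjusted p = 0.866). FMR1 itself passed, at −2.20 ± 0.21 (edgeR adjusted p = 0.000177).

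This outcome depended on which libraries set the spread. Line 3 is 1 line and the wild-type spread may be technical, so p-values of either fit cover spread between libraries, not between lines. Fitted on the 8 libraries of line 3 and wild type alone, an alternative planned beside the 12-library fit, 7.29% of 17081 genes passed (3.29% lower in line 3), as did 4 of the 6 members, all lower. Between the 12-library and the 8-library fit the fold changes hardly moved, and on 8 libraries they were −0.43 for LMO4 (SE 0.0767, edgeR adjusted p = 0.00141), −0.66 for BCL11A (SE 0.0848, edgeR adjusted p = 5.41e-05), −0.996 for LDB2 (SE 0.168, edgeR adjusted p = 0.000816) and −0.23 for LMO3 (SE 0.0651, edgeR adjusted p = 0.0404), while the SE of LMO4, BCL11A and LDB2 were several times smaller. The 12-library fit also called 4 members once line 1 heavy, or once line 1 light, was left out, and 3 without the filter on low counts. The share of all genes called in each of these settings is not given here, so nothing is read from these counts. Among all genes, 842 passed in the 12-library fit, 1387 without the filter and 278 to 1261 with 1 library left out. The values also moved with which line 3 library was kept: without line 3 heavy the 12-library fit gave −0.145 for LMO4, −0.488 for BCL11A and −0.844 for LDB2, and without line 3 light −0.732 for LMO4, −0.846 for BCL11A and −1.15 for LDB2, none of which passed. Both line 3 libraries lay below all 6 wild-type libraries for LMO3, LMO4, LDB2 and BCL11A, as they did for 10.1% of all genes tested.

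**Figure D3:**
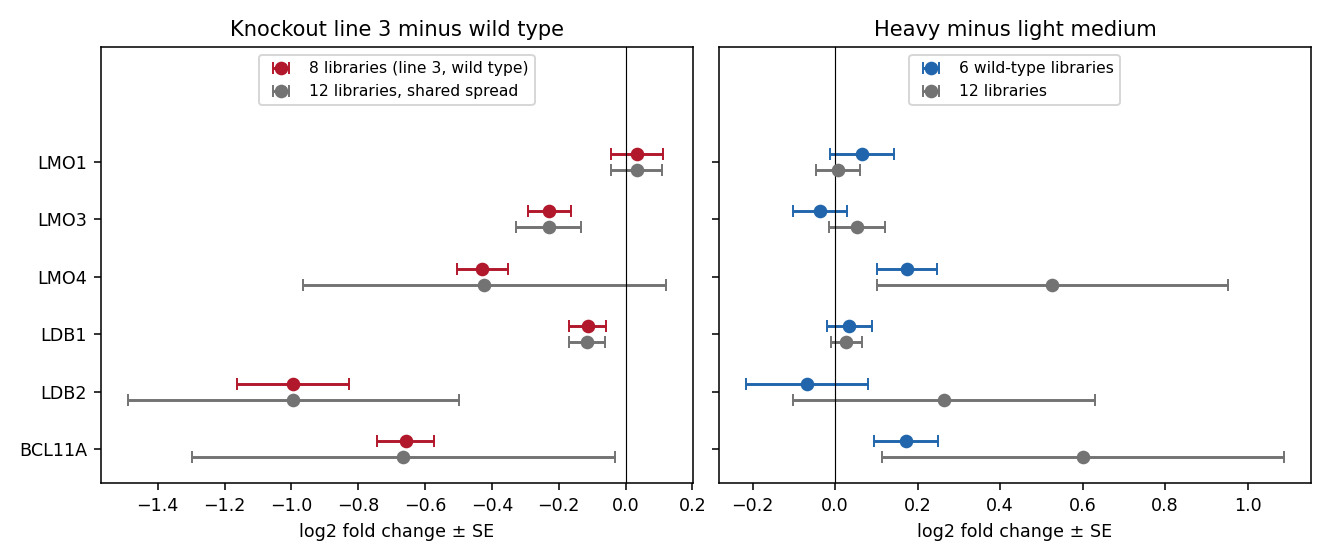
Log2 fold change ± SE of the 6 tested genes, for knockout line 3 minus wild type (left; red, 8 libraries; grey, 12 libraries) and heavy minus light medium (right; blue, wild type; grey, 12 libraries). The points of LMO4, BCL11A and LDB2 in line 3 are alike in both fits, with SE of 0.54, 0.63 and 0.50 in the 12-library fit.

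Heavy and light medium were compared because the medium took no part in choosing the genes. With edgeR, 0 of 16704 genes passed over the 12 libraries, although 1110 had an unadjusted p under 0.05 and DESeq2 called 13; the members' log2 differences of heavy over light were 0.53 ± 0.43 for LMO4 and 0.60 ± 0.49 for BCL11A (SE). Both rested on line 1: LMO4 was at 0.148 without line 1 heavy and 0.143 without line 1 light, and BCL11A at 0.191 and 0.187. Within wild type, LMO4 stood at 25.1, 24.5 and 24.0 CPM in heavy medium and 22.8, 22.1 and 20.2 CPM in light medium, without overlap. BCL11A stood at 18.8, 19.6 and 19.9 CPM in heavy medium and 16.1, 17.4 and 18.3 CPM in light medium, also without overlap. All 3 heavy libraries lay above all 3 light libraries for 5.92% of 15845 genes and below them for 5.38%. Neither difference passed, at 0.17 ± 0.073 for LMO4 and 0.17 ± 0.078 for BCL11A (SE, edgeR adjusted p = 0.959 for both), and 1 gene in all did (0.00631%).

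Within knockout, heavy minus light was 0.68 ± 1.64 for LMO4 and 1.04 ± 1.67 for BCL11A (SE, edgeR adjusted p = 1.00 for both), where line 1 alone holds a large gap between its media. No gene passed there with edgeR, with 134 at an unadjusted p under 0.05. The interaction of genotype and medium gave 0 genes as well, with 152 at an unadjusted p under 0.05, and was 0.47 ± 1.71 for LMO4 and 0.83 ± 1.70 for BCL11A.

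The pattern of near loss in line 1 light and line 2 was rare among genes. Of 16704 genes, 84 (0.503%) stood under 10% of their wild-type mean in those 3 libraries, and 51 of these (0.305%) stayed above 50% in both line 3 libraries. LMO4 and BCL11A belong to the 51, whereas LDB2, at 49.95% in line 3 heavy, belongs only to the 84. LMO4 and BCL11A were picked for their near loss in lines 1 and 2, so their place here restates that choice. In line 1 heavy, the 51 genes stood at a median of 49.5% of wild type (quartiles 46.3% and 55.4%), and LMO4 at 46.4% and BCL11A at 53.0% were near that value. That library's FMR1 level was 59.6% of wild type, and the part of its make-up in these values was not tested. This count was added after the data were seen.

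Likeness to LMO4 was measured as the root-mean-square difference over the 12 libraries of log2(CPM + 0.5), each gene set to its wild-type mean, among 12445 genes. The closest genes were CDH11, a cadherin of mesenchymal cells, at 0.141, PRICKLE1, a planar cell polarity protein, at 0.161, BCL11A at 0.191, RERG, a small GTPase, at 0.215, BMP7, a bone morphogenetic protein, at 0.220 and UGT8, an enzyme of myelin lipid synthesis, at 0.294. LMO4 and BCL11A were chosen for their near loss in the same libraries, so their closeness to each other restates that choice and is a description only. For BCL11A, LMO4 was the closest of all, followed by CDH11, RERG, PRICKLE1, BMP7 and GRM8, a glutamate receptor. CDH11, PRICKLE1, RERG and BMP7 were thus among the 6 closest to both genes; none lies on the chromosome of LMO4 or BCL11A. Among the other members, LDB2 ranked 47, LMO3 276, LDB1 1002 and LMO1 8088 in likeness to LMO4. The added 0.5 CPM shrinks the fall of a low gene such as LDB2, which enters its rank. For LDB2, measured after the data were seen, the closest were SLITRK6, DACH1 and PDGFRA, at 0.175, 0.194 and 0.198.

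**Figure D4:**
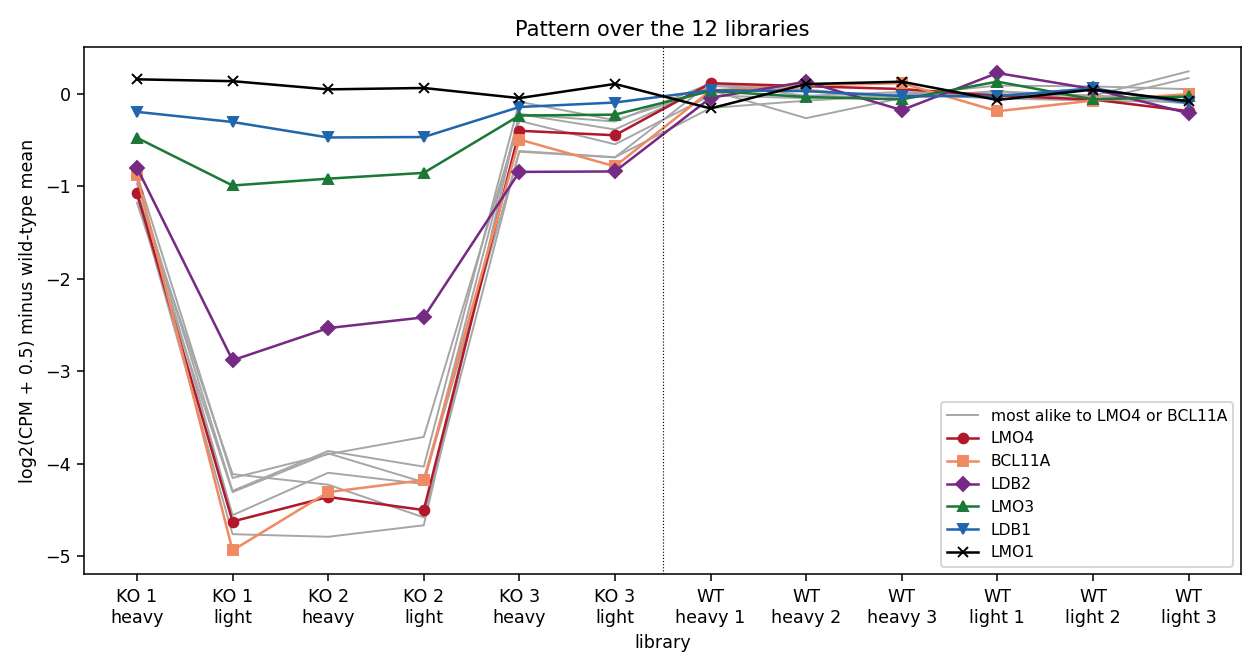
Log2(CPM + 0.5) minus the wild-type mean in each library, knockout left of the dotted line, for 6 members and, in grey, the genes most alike to LMO4 or BCL11A. LMO4 and BCL11A run together with the grey lines, LDB2 and LMO3 follow at smaller depth, and LMO1 stays near 0. The added 0.5 CPM limits the depth of a low gene such as LDB2. Of their wild-type means, LDB2 and LMO4 stood at 2.80% and 1.96% in line 1 light. In line 2 they averaged 7.75% and 2.56%.

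Of the 12 nearest tested genes, 2 on each side of LMO4, BCL11A and LDB2, 0 passed in knockout against wild type with edgeR over the 12 libraries. Of all genes tested, 24.8% passed. This contrast pools the knockout lines, while the near loss was in line 1 light and line 2. Calls by line are not given for the neighbours, so whether they changed in those lines is not shown. The neighbours lay between 181 and 1988 kb away. ELOCP19 lies within PKN2 and AC007238.1 within LINC01122, so not all are separate places. Beside LMO4, SELENOF averaged 82.5 ± 6.90 CPM in knockout and 91.2 ± 1.70 CPM in wild type (SD, n = 6 each), a log2 difference of −0.15 (edgeR adjusted p = 0.0518). Beside BCL11A, PAPOLG averaged 15.3 ± 1.24 CPM in knockout and 15.9 ± 1.37 CPM in wild type. Beside LDB2, QDPR averaged 62.2 ± 20.3 CPM in knockout and 44.2 ± 2.46 CPM in wild type (edgeR adjusted p = 0.0845); the line 1 libraries had 126% and 148% of the wild-type mean, those of line 2 had 186% and 199.9%, and those of line 3 had 92.4% and 91.9%. The calls depended on the libraries and the tool. SELENOF passed without line 3 heavy (edgeR adjusted p = 0.0109) or line 3 light (edgeR adjusted p = 0.0248), with the replicate block (edgeR adjusted p = 0.0423), with a 1-CPM filter (edgeR adjusted p = 0.0484), with DESeq2 (adjusted p = 0.0334) and with limma-voom (adjusted p = 0.0490). QDPR passed without line 3 heavy (edgeR adjusted p = 0.0329) or line 3 light (edgeR adjusted p = 0.0154) and with DESeq2 (adjusted p = 0.0183), and HS2ST1, another gene beside LMO4, without line 3 heavy (edgeR adjusted p = 0.0269).

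Known partners and related genes, together called partner genes here, were followed in 8 lists with 85 distinct tested genes. Other small LIM proteins (11 tested), neuroblastoma core factors (14 tested) and globins (0 tested) were listed as related genes, not as partners. In knockout against wild type, 6 rose and 23 fell, so 34.1% passed with edgeR, against 24.8% of all genes (14.8% higher and 9.96% lower), and the median log2 difference was −0.12 against 0.00 over all genes. The number that fell moved with single libraries. It was 39 without line 3 light, 14 without line 1 light, 11 without line 2 heavy and 9 without line 2 light. It was 15 and 11 without wild-type heavy 1 and 2, and 13, 12 and 12 without wild-type light 1, 2 and 3. On counts summed per line, 3 against 3, 2 rose and 0 fell, and with DESeq2 36 fell. The share of all genes that passed in each of these settings is not given here. These counts therefore do not show a shift particular to the partner genes. BAF subunits had 2 higher, 11 lower and 12 not passing of 25, NuRD subunits 1 higher, 4 lower and 9 not passing of 14, and the GATA, basic helix-loop-helix and other LIM complex partners 1 higher, 5 lower and 12 not passing of 18. By line, 6 rose and 27 fell in line 1, 9 rose and 47 fell in line 2 and 3 rose and 5 fell in line 3, where the shares of all genes that passed were 28.4% (15.8% higher, 12.6% lower), 43.2% (22.6% higher, 20.6% lower) and 5.04%. Without line 1 heavy, 9 rose and 23 fell in line 1 (27.3% of all genes passed), and 9 rose and 47 fell in line 2 (44.3% passed, 21.2% lower). Set against lines 1 and 2, 29 partner genes were higher and 9 lower in line 3 (25.9% of all genes passed, 12.4% higher and 13.5% lower).

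The largest change among the listed genes named was in CSRP1, a small LIM protein of the actin cytoskeleton. It averaged 40.3 ± 14.5 CPM in knockout and 9.90 ± 0.815 CPM in wild type (SD, n = 6 each), a log2 difference of 2.02 (edgeR adjusted p = 0.000692), and it rose in line 3 too, by 1.29. SMARCD3, a BAF subunit, rose by 0.56 (edgeR adjusted p = 0.000844), and DPF3, a BAF subunit of neurons and muscle, by 1.34 (edgeR adjusted p = 0.00599). These were the 2 BAF subunits that rose, while 11 fell. Among those were ARID1B, at −0.21 (edgeR adjusted p = 0.00341), and ARID1A, at −0.20 (edgeR adjusted p = 0.00883). SOX11, a factor of immature neurons, averaged 306 ± 65.0 CPM in knockout and 471 ± 39.7 CPM in wild type, and GATA3, a partner of LMO complexes and an adrenergic core factor, 335 ± 61.2 CPM in knockout and 426 ± 15.8 CPM in wild type; both fell (edgeR adjusted p = 0.00599 and 0.0242). Among basic helix-loop-helix partners, TCF4 and TCF12 fell by 0.26 and 0.39 on the log2 scale (edgeR adjusted p = 0.00677 and 0.0191), and DEAF1, a factor that binds LMO4, rose by 0.21 (edgeR adjusted p = 0.0161). In NuRD, CHD3 and HDAC2 fell by 0.23 and 0.22 (edgeR adjusted p = 0.00772 and 0.0214). Of the genes named in this paragraph, CSRP1 and SMARCD3 passed on counts summed per line, 3 against 3 (edgeR adjusted p = 0.0398 and 0.0395), and the others did not (edgeR adjusted p of 0.0745 to 0.143). GATA3 also lost its call without line 1 light, line 2 light or wild-type light 2 (edgeR adjusted p of 0.0550 to 0.0577), HDAC2 without line 1 light, line 2 light or wild-type light 3 (edgeR adjusted p of 0.0518 to 0.0555), and GATA3 and TCF12 without the filter on low counts (edgeR adjusted p = 0.0678 and 0.0543).

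Over all knockout libraries, none of the 3 tested LIM homeodomain factors passed; ISL1 averaged 231 ± 33.6 CPM in knockout and 269 ± 13.0 CPM in wild type (edgeR adjusted p = 0.0683). ISL1 passed without line 1 light (edgeR adjusted p = 0.0135), and ISL2 without line 1 heavy, line 3 light or wild-type heavy 1 (edgeR adjusted p of 0.0232 to 0.0393); with DESeq2 both passed (adjusted p = 0.0381 and 0.0280). By line, ISL1 fell by 0.40 in line 3 (edgeR adjusted p = 0.00182), and in line 2 ISL1 fell by 0.29 (edgeR adjusted p = 0.00242) and ISL2 by 0.45 (edgeR adjusted p = 0.0132). The globin genes, classical BCL11A targets, had 0 tested of 4. On the list of BCL11 nuclear receptor partners, SIRT1, which is itself not a nuclear receptor, fell (edgeR adjusted p = 0.0304). That call was lost on counts summed per line (edgeR adjusted p = 0.144). It was also lost without any 1 of 7 libraries: heavy or light of lines 1 and 2, wild-type heavy 1 or 2, or wild-type light 1 (edgeR adjusted p of 0.0519 to 0.0719). NR2F1 and NR2F6 did not pass; NR2F1 fell by 0.50 in line 3 (edgeR adjusted p = 0.000117). The summed fibroblast markers, led by PDGFRA, stood at 73.2 to 131 CPM in the knockout libraries and 174 to 186 CPM in wild type, and their part in these differences was not tested. Leukocyte, endothelial and epithelial sums were at most 1.39, 0.112 and 1.58 CPM in knockout and 0.914, 0.0745 and 1.83 CPM in wild type, with PTPRC, CD3E, KRT5 and KRT14 at 0.

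**Figure D5:**
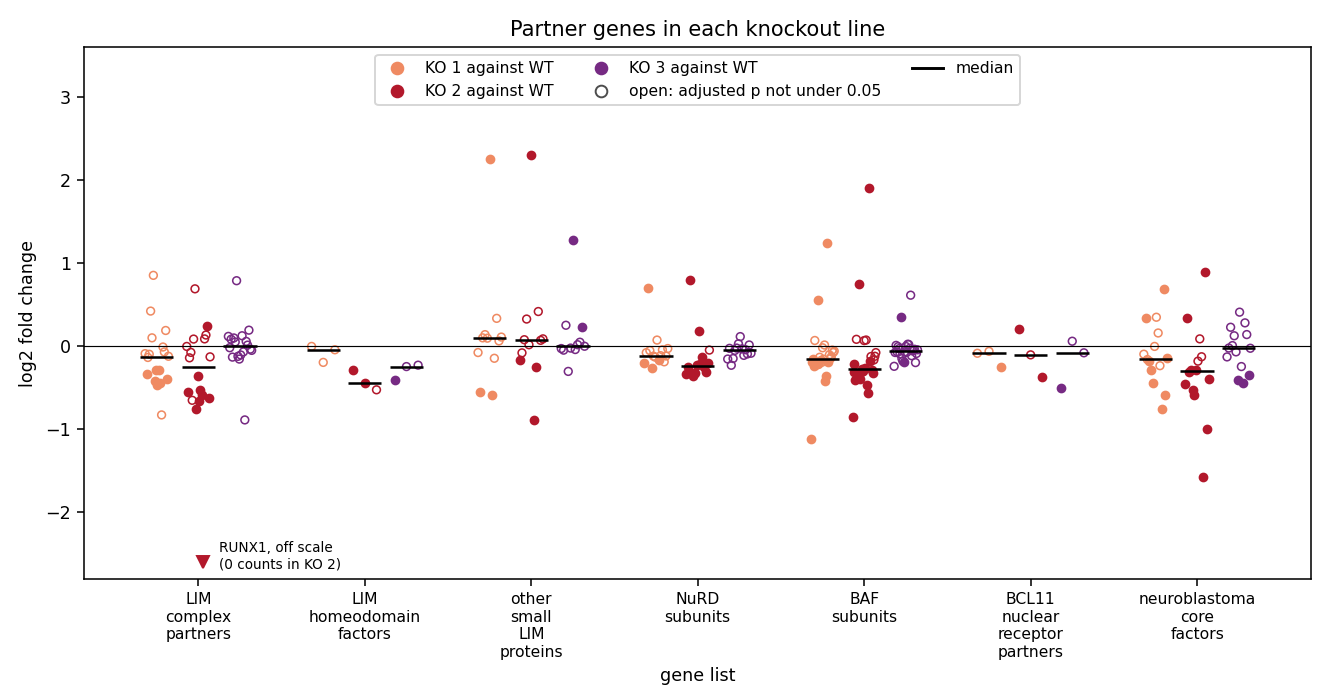
Log2 fold change over wild type of each tested partner gene in knockout lines 1, 2 and 3, by list; filled points passed an adjusted p of 0.05 and bars are medians. RUNX1 in line 2, with 0 counts there, is drawn as an off-scale triangle at the lower edge and its position is not a value; most points of line 3 are open and near 0.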

How the data were processed

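Poly(A) RNA of 12 libraries was measured with a stranded kit, per the labels' protocols. Per the submitters' processing notes, reads were converted with bcl2fastq 2.19.0, aligned with STAR 2.7.0f to GRCh38.p13 and assigned with featureCounts of Subread 1.6.4; DESeq2 1.22.1 and R 3.5.1 are also named. Annotation release and strand setting: not given in the sources used here. The deposited values are raw counts per gene, made by the authors, with 25935152 to 40257027 per library.

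Unmodified counts went into edgeR 4.0.16 under R 4.3.3 (normalisation by TMM, filterByExpr, robust quasi-likelihood F test, Benjamini-Hochberg over all genes at 0.05). CPM, with TMM-scaled totals, were computed here. Scripts were tested on simulated data. Knockout and wild type were compared with medium as a covariate; lines in 1 fit of 12 libraries; media over 12 libraries, within each genotype, and as an interaction. Positions and exon lengths are from GENCODE 29, promoters from RefSeq. Alternatives were RLE factors, DESeq2 1.42.0, limma-voom 3.58.1, other filters, summed lines, a replicate block and each library left out. Members and lists were chosen with earlier results of these data known. Named were all members, FMR1, from each list genes among the 4 smallest p, the 2 nearest tested genes per side, and the 6 most alike. RUNX1 was named after its value was seen. Knockout libraries of 1 number are the same line per the labels. Their deviations from group means correlated at 0.703 and 0.723 for lines 2 and 3, but at only 0.133 for line 1. The values thus show pairing for lines 2 and 3, while for line 1 it rests on the labels.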

Additional observations from a re-analysis of the deposited data

Results flagged for a closer look

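BCL11B was flagged because 1 of the 6 wild-type libraries stood apart from the others: it had 0.0339 CPM, from 1 read, while the other 5 had 0. With the other 5 at 0, the gap to the next library is the whole range, so any single read would be flagged.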

How the results depend on the processing

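Without line 1 heavy, the log2 ratio of line 1 to wild type was −5.67 for LMO4, −7.34 for BCL11A, −5.16 for LDB2 and −1.004 for LMO3. Partner genes that fell numbered 36 with DESeq2 and 0 on summed lines, where 2 rose, and 9 to 39 with 1 library left out. In line 3, 1387 genes passed without the count filter, and 278 to 1261 with 1 library left out (278 without line 3 heavy, 530 without line 3 light); members passing numbered 4 on 8 libraries, 3 without the filter, and 0 to 4 with 1 library left out. For the medium over 12 libraries, DESeq2 called 13 genes, and no filter gave 219 genes and 2 members, LMO4 and BCL11A; within wild type 0 to 8 genes passed with 1 library left out, against 1 with all: 3 without heavy 1, 8 without heavy 3 and 0 without each of the others. The cause was not tested, and counts of partner genes and members are given here without the share of all genes in the same setting.

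Directions that turned did so with 1 library left out, all on values that did not pass. These ranged, on the log2 scale, from −0.0651 to 0.0311 for NR2F6 in knockout and −0.05998 to 0.127 for LMO1 in line 3. Over 12 libraries, heavy minus light ran from −0.0242 to 0.03998 for LMO1, −0.0402 to 0.0923 for LMO3 and −0.07097 to 0.392 for LDB2. Within wild type it ran from −0.0782 to 0.0242 for LMO3, −0.00961 to 0.0742 for LDB1 and −0.188 to 0.0416 for LDB2. Within knockout it ran from −0.0969 to 0.00405 for LMO1, −0.0282 to 0.419 for LMO3, −0.0762 to 4.28 for LMO4 and −0.06801 to 0.127 for LDB1. The interaction ran from −0.28 to 4.11 for LMO4 and −0.101 to 0.0989 for LDB1.

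With the replicate block, 6 partner genes rose and 31 fell, 4 genes passed for the medium in wild type, and 0 members passed in any medium comparison or the interaction. Wild-type numbers did not pair libraries: deviations correlated at 0.099, 0.016 and −0.097. No paired analysis was possible for line 3 because 1 line carries 1 number. Depth limits the lowest levels: 3 counts equal 0.0745 to 0.115 CPM, depending on the library.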
